A study of Homo sapiens with 12 samples.

Results

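Amino acid transporters of the SLC1A, SLC3A, SLC7A, SLC36A, SLC38A and SLC43A families were followed in LN229, an established human glioblastoma cell line. Members were found by gene symbol among probe sets that the platform annotation pairs with a single gene, and the brightest probe set stood for each gene. The rule found 37 genes of the 14232 measured in this way: 7 of SLC1A, 1 of SLC3A, 12 of SLC7A, 3 of SLC36A, 11 of SLC38A and 3 of SLC43A. RNA of whole cultures was measured on 12 Affymetrix whole-transcript arrays, 3 in each of 4 groups. The normoxia group carried non-targeting control siRNA and was kept at 20% oxygen. The hypoxia groups were kept at 1% oxygen and carried the control siRNA, siRNA against HIF1A, or siRNA against HIF2A, whose gene symbol is EPAS1. In every group cells were transfected 24 h after seeding, exposed 48 h later and harvested after 16 h of exposure. All groups were thus transfected, and no normoxic arrays with either HIF siRNA are among the samples used here.

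Cells take up amino acids through carriers that differ in what they move and in what drives them. SLC1A proteins bring in glutamate or exchange small neutral amino acids, SLC38A proteins carry glutamine and other neutral amino acids with sodium, and SLC36A proteins move small amino acids together with protons. SLC7A light chains exchange amino acids across the membrane, many of them only when paired with the heavy chain SLC3A2. SLC43A1 and SLC43A2 carry large neutral amino acids without exchange. In brain, astrocytes clear glutamate mainly through SLC1A2 and SLC1A3, and cultured glioma cells are known for cystine uptake and glutamate release through SLC7A11. HIF-1A and HIF-2A are the oxygen-regulated subunits of the transcription factors that drive much of the response to low oxygen.

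The siRNA targets checked the labels. HIF1A measured 11.46 ± 0.23 (SD, n = 3) on the log2 scale in hypoxia with control siRNA and 8.33 ± 0.67 with HIF1A siRNA, an 8.76-fold fall. EPAS1 measured 9.71 ± 0.13 with control siRNA and 7.12 ± 0.11 with HIF2A siRNA, a 6.04-fold fall, and it was also 2.79-fold lower with HIF1A siRNA (limma with Benjamini-Hochberg adjustment, adjusted p = 0.000313). Arrays of a group correlated at r = 0.983 to 0.994 across probe sets, and array medians lay between 6.49 and 6.82. Upper quartiles were 7.88 to 8.22 on the HIF1A siRNA arrays, lowest on replicate 3, and 8.24 to 8.57 on the other 9. Of 8 measured markers of glioblastoma and astroglia, VIM, NES, CD44, EGFR and S100B lay above the median probe set, GFAP and ALDH1L1 were intermediate, and AQP4 was dim. None of 5 microglial, 4 endothelial and 3 epithelial markers lay above that median, whereas 3 of 6 neuronal markers (SNAP25, SYT1 and GAD1) and 1 of 4 oligodendrocyte markers (OLIG2) did.

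Members were sorted by their mean over the 12 arrays, against the means of all 22011 probe sets. A probe set at or above their median, 6.73 on the log2 scale, was called expressed, and one below their lower quartile, 4.77, was called dim. By this measure 17 members were expressed, 9 were intermediate and 11 were dim. SLC38A5, at 6.77, lay just inside the expressed class and SLC38A6, at 6.68, just outside it, while SLC7A9, at 4.76, lay just inside the dim class. These classes order probe sets only roughly, since brightness also depends on the probes, and levels are not compared between genes here. The expressed class held SLC1A1, SLC1A4, SLC1A5, the heavy chain SLC3A2, the light chains SLC7A5 and SLC7A11, the cationic transporter SLC7A1, SLC36A1, SLC36A4, 7 SLC38A genes and SLC43A3. The astrocyte glutamate transporters SLC1A2 and SLC1A3 were both dim.

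Hypoxia with control siRNA was compared with normoxia to ask which carriers respond to low oxygen. The glutamate and cysteine transporter SLC1A1, the neutral amino acid exchangers SLC1A4 and SLC1A5, the glutamine transporter SLC38A5 and the dim neutral amino acid transporter SLC38A4 rose. The proton-coupled transporter SLC36A1, the large neutral amino acid transporter SLC43A2 and SLC38A12 fell. Of the 37 members, 5 were called higher and 3 lower at an adjusted p under 0.05, which is 21.6% of them. Among all genes 12.3% were called, 3.37% higher and 8.95% lower. The median change was 0.02 over the members and -0.03 over all genes. Of the 17 expressed members 4 rose and 2 fell, where 4.93% of all genes of that class rose and 14% fell. Among the 9 intermediate members 0 rose and SLC43A2 fell, where 2.11% of all genes of that class rose and 4.32% fell. Among the 11 dim members SLC38A4 rose and 0 fell, against 0.701% and 1.11% of all dim genes. The difference between classes was not tested. Scaling matters for the split, since rises made up 27.4% of the calls over all genes on the deposited values and 44.1% after quantile normalization. The members then stood at 9 higher and 3 lower, where 946 of all 14232 genes were higher and 1200 lower. Whether replicates were separate cultures is not said in the labels, and p-values therefore reflect only how far these arrays lie apart, a spread that may be technical. In bulk RNA, fewer cells carrying a transcript and less of it per cell cannot be told apart.

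**Figure D1:**
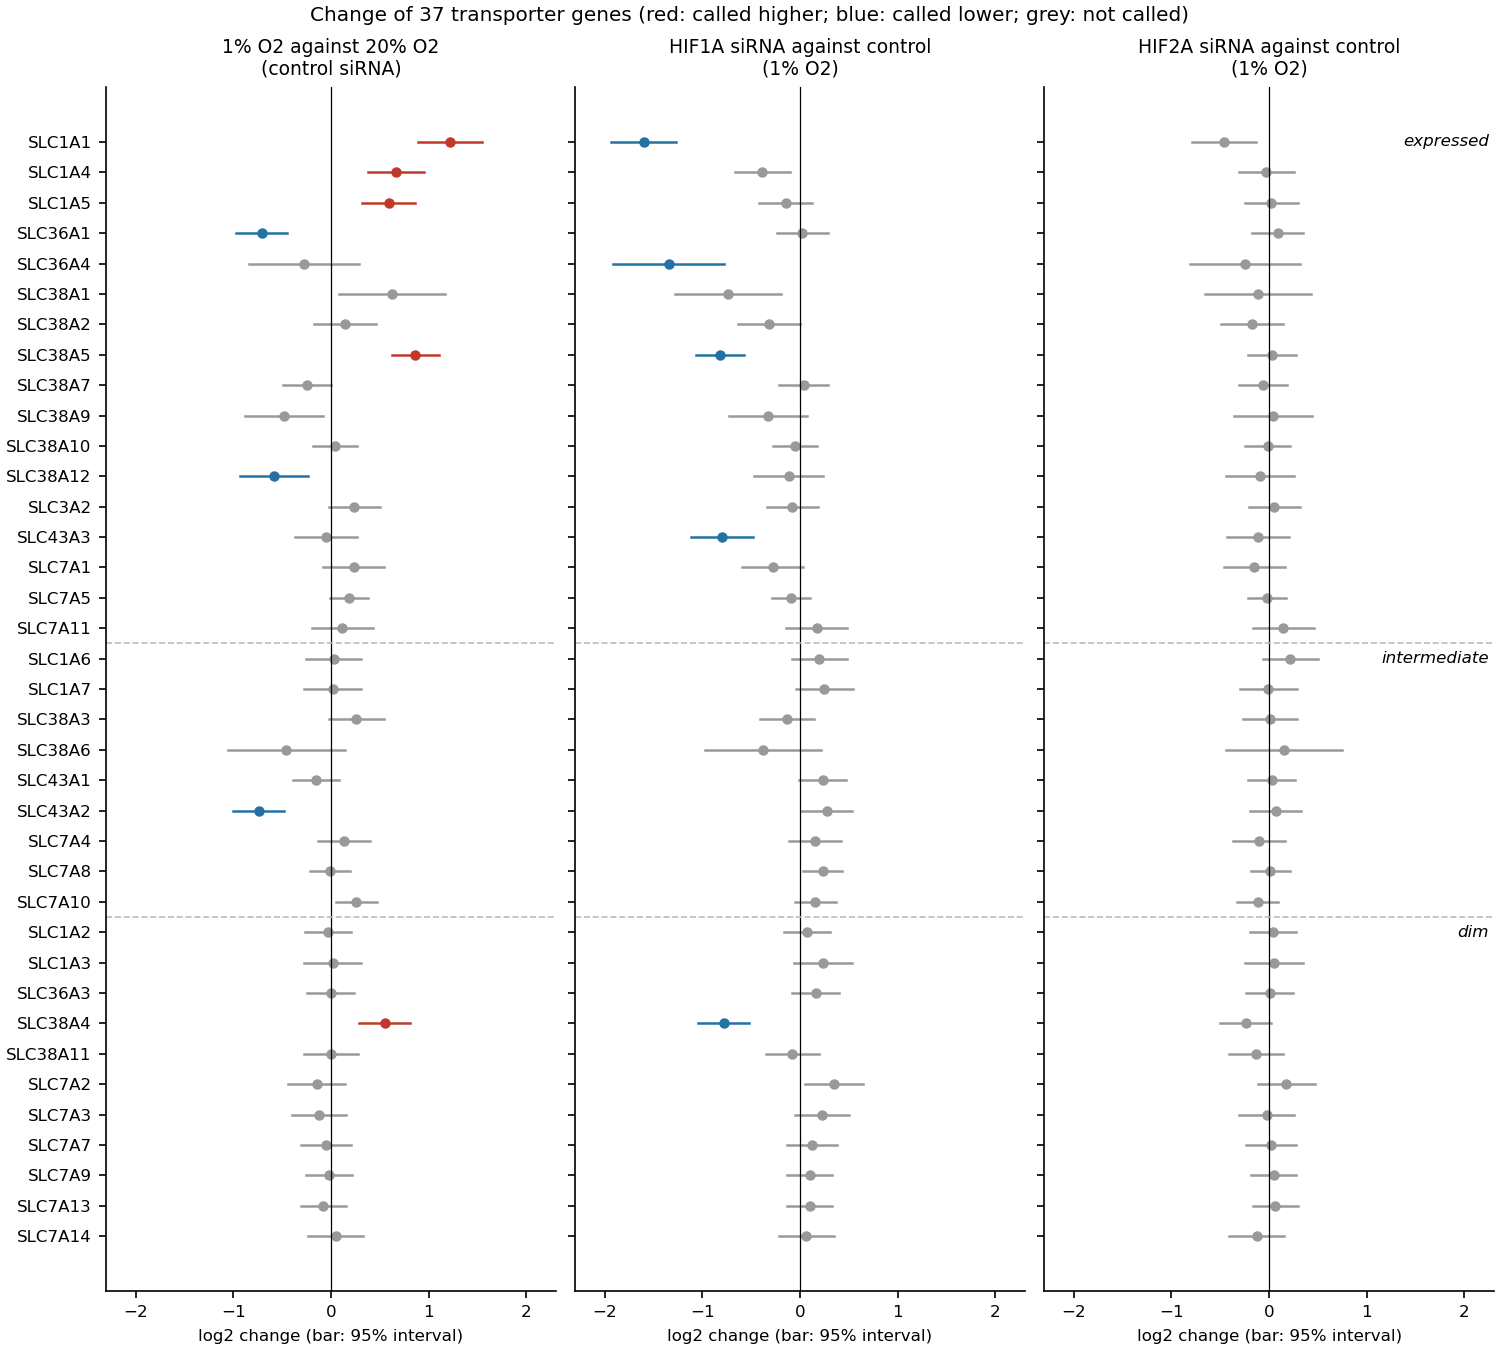
Log2 change of the 37 transporter genes in 3 comparisons: hypoxia against normoxia with control siRNA, and HIF1A siRNA or HIF2A siRNA against control siRNA in hypoxia. Points are limma estimates, bars are their 95% intervals, red and blue mark genes called higher and lower, grey marks the rest, and dashed lines divide expressed, intermediate and dim genes; 8, 5 and 0 genes are coloured in the 3 comparisons.

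SLC1A1, also known as EAAT3 or EAAC1, takes up glutamate, aspartate and cysteine. On the log2 scale it measured 9.16, 9.09 and 9.13 in normoxia, 10.44, 10.31 and 10.28 in hypoxia with control siRNA, 8.79, 9.04 and 8.40 with HIF1A siRNA, and 10.00, 9.70 and 9.96 with HIF2A siRNA. The 4 groups did not overlap, with hypoxic control arrays highest, HIF2A siRNA next, normoxia below and HIF1A siRNA lowest. The rise in hypoxia was 2.33-fold (log2 change 1.22, SE 0.15, limma adjusted p = 0.000648), the largest rise among the 37 members on the deposited values.

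SLC1A4, known as ASCT1, exchanges alanine, serine and cysteine, and SLC1A5, known as ASCT2, exchanges glutamine and other neutral amino acids. SLC1A4 measured 10.29, 10.14 and 10.20 in normoxia, 10.94, 10.75 and 10.93 in hypoxia, 10.78, 10.39 and 10.30 with HIF1A siRNA, and 10.88, 10.73 and 10.93 with HIF2A siRNA. All normoxic arrays lay below all hypoxic arrays, and the rise with control siRNA was 1.59-fold (SE 0.13 on the log2 scale, limma adjusted p = 0.00719). SLC1A5 measured 9.24, 9.28 and 9.30 in normoxia, 9.97, 9.88 and 9.75 in hypoxia, 9.78, 9.89 and 9.50 with HIF1A siRNA, and 10.09, 9.79 and 9.79 with HIF2A siRNA. Here too the normoxic arrays lay below every hypoxic array, and the 3 hypoxic groups overlapped. The rise with control siRNA was 1.51-fold (SE 0.12, limma adjusted p = 0.0108). It rests on the brighter of 2 probe sets: the other differed by 0.11, and with the mean of both the change was 0.35 and missed the threshold (adjusted p = 0.0739). Of the other SLC1A genes, SLC1A6 and SLC1A7, which encode the glutamate transporters EAAT4 and EAAT5, were intermediate and SLC1A2 and SLC1A3 dim, with hypoxic changes from -0.03 to 0.03 and no call.

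Promoter sequence was read for the members that rose. RefSeq gives 250 bases before the start of 29 of the 37 members on GRCh38.p14. Searched on both strands were ACGTG and GCGTG, the cores of the hypoxia response element, and TGATGNAA, the element of ATF4 with C/EBP factors. Of 27305 promoter windows of this length, 18.7% held ACGTG, 31.9% held GCGTG, 43.1% held either and 3.19% held TGATGNAA. Among the 29 members 7 held ACGTG, 13 held GCGTG, 14 held either, and 1, SLC1A3, held TGATGNAA. The 4 rising members below each held a core, and SLC1A5 (chr19:46788595-46788844, minus strand) held none of the 3 motifs. Sequences run 5' to 3' on the gene's strand and capitals mark the cores, as CACGT or CACGC where the match is on the other strand. SLC1A1 (chr9:4490218-4490467, plus strand) has 4 GCGTG matches, of which 2 on the other strand share a base. SLC1A4 (chr2:64988229-64988478, plus strand) has 2 ACGTG and 1 GCGTG. SLC38A5 (chrX:48470261-48470510, minus strand) has 1 GCGTG and a CACGTG that counts as ACGTG once on each strand. SLC38A4 (chr12:46825998-46826247, minus strand) has 1 of each.
SLC1A1: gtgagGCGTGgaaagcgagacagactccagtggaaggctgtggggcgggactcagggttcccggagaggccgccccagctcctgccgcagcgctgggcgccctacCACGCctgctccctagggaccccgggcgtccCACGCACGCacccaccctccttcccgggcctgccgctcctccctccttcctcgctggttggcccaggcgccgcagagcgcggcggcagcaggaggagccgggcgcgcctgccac
SLC1A4: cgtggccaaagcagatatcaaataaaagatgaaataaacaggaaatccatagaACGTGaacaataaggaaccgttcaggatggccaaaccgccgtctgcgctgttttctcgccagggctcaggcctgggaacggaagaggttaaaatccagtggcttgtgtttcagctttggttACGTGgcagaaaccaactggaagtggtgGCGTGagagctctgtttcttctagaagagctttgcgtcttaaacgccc
SLC38A5: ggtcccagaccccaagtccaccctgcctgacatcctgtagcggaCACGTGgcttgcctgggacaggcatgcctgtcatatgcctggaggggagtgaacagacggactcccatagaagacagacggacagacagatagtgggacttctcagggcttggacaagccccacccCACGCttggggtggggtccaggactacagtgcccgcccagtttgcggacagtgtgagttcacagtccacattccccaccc
SLC38A4: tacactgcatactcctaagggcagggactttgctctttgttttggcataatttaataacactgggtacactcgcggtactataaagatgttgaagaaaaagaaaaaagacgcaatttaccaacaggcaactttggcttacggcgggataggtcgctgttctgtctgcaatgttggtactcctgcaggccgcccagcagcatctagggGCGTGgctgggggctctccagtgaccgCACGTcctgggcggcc
The matches describe the letters of these windows. Members that did not move held the cores too, and no binding was measured.

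SLC38A5, known as SNAT5, carries glutamine, asparagine and histidine in exchange for protons. It measured 6.33, 6.34 and 6.27 in normoxia, 7.24, 7.15 and 7.15 in hypoxia, 6.54, 6.29 and 6.26 with HIF1A siRNA, and 7.38, 7.22 and 7.03 with HIF2A siRNA. The arrays formed a low set, normoxia and HIF1A siRNA, which overlapped each other, and a high set, hypoxia with control or HIF2A siRNA, which also overlapped. The rise in hypoxia was 1.82-fold (SE 0.11 on the log2 scale, limma adjusted p = 0.00083). SLC38A4, known as SNAT4 and dim on every array, measured 3.42, 3.38 and 3.32 in normoxia, 4.06, 3.69 and 4.03 in hypoxia, 3.18, 3.19 and 3.06 with HIF1A siRNA, and 3.70, 3.54 and 3.82 with HIF2A siRNA. Hypoxic control arrays all lay above the normoxic ones, and the HIF1A siRNA arrays were lowest. The rise was 1.47-fold (adjusted p = 0.0122), and it missed the threshold without normoxia replicate 3 (0.0557) or hypoxic control replicate 3 (0.0506).

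SLC38A1 and SLC38A2, the SNAT1 and SNAT2 carriers of small neutral amino acids, did not pass the test. SLC38A1 measured 9.27, 9.16 and 9.16 in normoxia, 10.20, 9.62 and 9.66 in hypoxia, 9.11, 9.64 and 8.51 with HIF1A siRNA, and 9.80, 9.50 and 9.83 with HIF2A siRNA. The normoxic and hypoxic control arrays did not overlap, but hypoxic control replicate 1 stood well above the other 2, and the HIF1A siRNA arrays spread widest. The change was 0.63 (95% interval 0.08 to 1.17, limma adjusted p = 0.135). It was called after quantile normalization (0.81, adjusted p = 0.0104), cyclic loess (0.79, 0.0116) and median centring (0.68, 0.0488). SLC38A2 changed by 0.14 (95% interval -0.17 to 0.46), and the other SLC38A members with no call in hypoxia were SLC38A3, SLC38A6, SLC38A7, SLC38A9, SLC38A10 and SLC38A11. Among these, SLC38A9, the lysosomal arginine sensor of mTORC1, differed by -0.48 (adjusted p = 0.121) and the lysosomal glutamine transporter SLC38A7 by -0.25 (adjusted p = 0.2), in both cases without overlap between the groups.

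**Figure D2:**
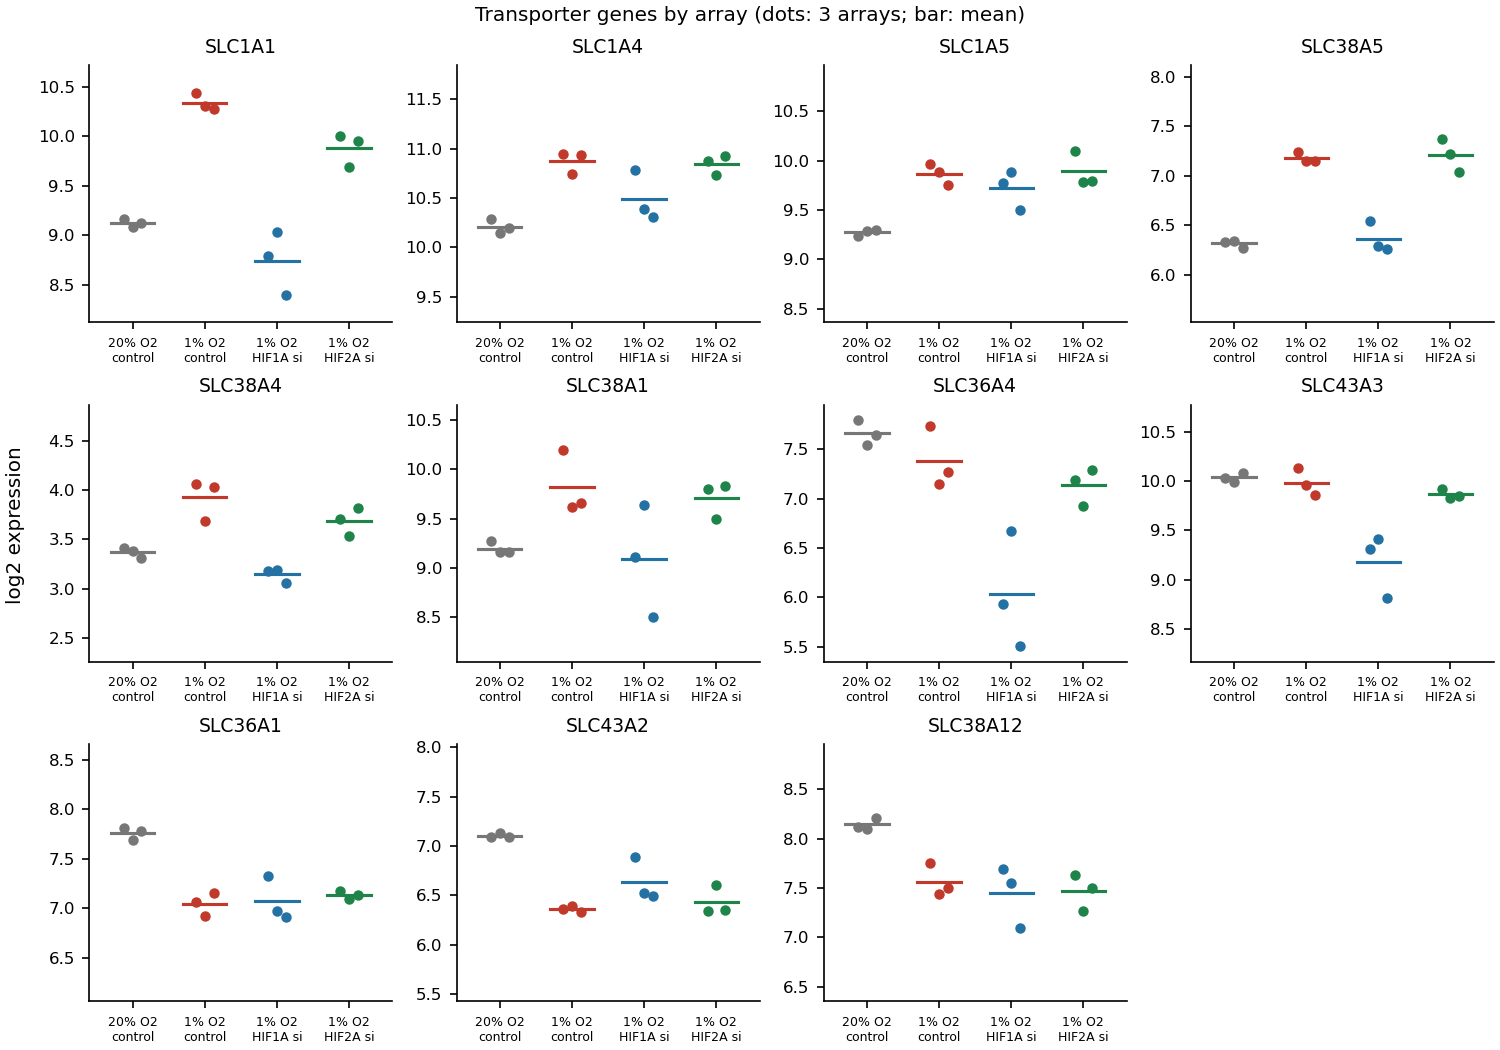
Log2 value on each of the 12 arrays (dots) with the group mean (bar) for 11 transporter genes, in normoxia with control siRNA and in hypoxia with control, HIF1A or HIF2A siRNA. SLC38A5 sits near 6.3 in normoxia and with HIF1A siRNA and near 7.2 in the other hypoxic groups, whereas SLC36A1 is lower in all 3 hypoxic groups than in normoxia.

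The transporters that fell in hypoxia came from 3 families. SLC36A1, known as PAT1, moves small amino acids with protons, at the cell surface and out of lysosomes. It measured 7.81, 7.69 and 7.78 in normoxia, 7.06, 6.93 and 7.16 in hypoxia, 7.33, 6.97 and 6.91 with HIF1A siRNA, and 7.17, 7.10 and 7.14 with HIF2A siRNA. Every hypoxic array lay below every normoxic one, whichever siRNA it carried, and the fall with control siRNA was 1.64-fold (SE 0.12 on the log2 scale, limma adjusted p = 0.00346). SLC43A2, known as LAT4, measured 7.09, 7.13 and 7.09 in normoxia, 6.37, 6.39 and 6.33 in hypoxia, 6.89, 6.53 and 6.49 with HIF1A siRNA, and 6.35, 6.60 and 6.35 with HIF2A siRNA. Its hypoxic arrays again lay below the normoxic ones in all 3 groups, with HIF1A siRNA replicate 1 nearest to them. The fall with control siRNA was 1.67-fold (SE 0.12, adjusted p = 0.00281). SLC38A12 measured 8.12, 8.10 and 8.21 in normoxia, 7.76, 7.44 and 7.50 in hypoxia, 7.69, 7.55 and 7.10 with HIF1A siRNA, and 7.64, 7.27 and 7.50 with HIF2A siRNA. Normoxic arrays lay above all hypoxic ones, and the fall was 1.5-fold (adjusted p = 0.0358). That call is the least firm of the 3, since it was lost without any 1 of the normoxic arrays (adjusted p 0.079 to 0.123) or without hypoxic control replicate 2 (0.136) or 3 (0.109). In promoter windows SLC36A1 held none of the 3 motifs, SLC43A2 held 1 GCGTG and SLC38A12 held 1 of each core.

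Among the members, the heavy chain SLC3A2, known as CD98, and its light chains gave no call in hypoxia. SLC7A5, known as LAT1, which exchanges glutamine for leucine and other large neutral amino acids, measured 11.99, 11.97 and 12.04 in normoxia and 12.21, 12.24 and 12.11 in hypoxia. SLC3A2 measured 11.68, 11.60 and 11.68 in normoxia and 11.96, 11.94 and 11.78 in hypoxia. In both genes the hypoxic arrays lay above all normoxic ones, yet the differences were small: 0.19 for SLC7A5 (95% interval -0.01 to 0.38, limma adjusted p = 0.227) and 0.24 for SLC3A2 (-0.02 to 0.50, adjusted p = 0.232). Quantile normalization put both past the threshold, at 0.31 (adjusted p = 0.019) and 0.32 (0.0207), as did cyclic loess. SLC7A11, or xCT, the cystine and glutamate exchanger, measured 9.92, 9.79 and 9.88 in normoxia and 10.18, 9.89 and 9.88 in hypoxia, and the groups overlapped. Its difference was 0.12 (95% interval -0.20 to 0.43), with 0.43 as its upper limit. The cationic amino acid transporter SLC7A1 differed by 0.24 (adjusted p = 0.354), and passed only after quantile normalization (0.39, adjusted p = 0.0198) and cyclic loess (0.40, 0.0125). SLC7A8, known as LAT2, differed by -0.01 and SLC7A10, or asc-1, which carries small neutral amino acids, by 0.26 (adjusted p = 0.106), and both were intermediate. SLC7A10 was called with cyclic loess (0.31, adjusted p = 0.0395) and with array weights (0.25, 0.0203). The light chain SLC7A7 was dim and differed by -0.05.

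**Figure D3:**
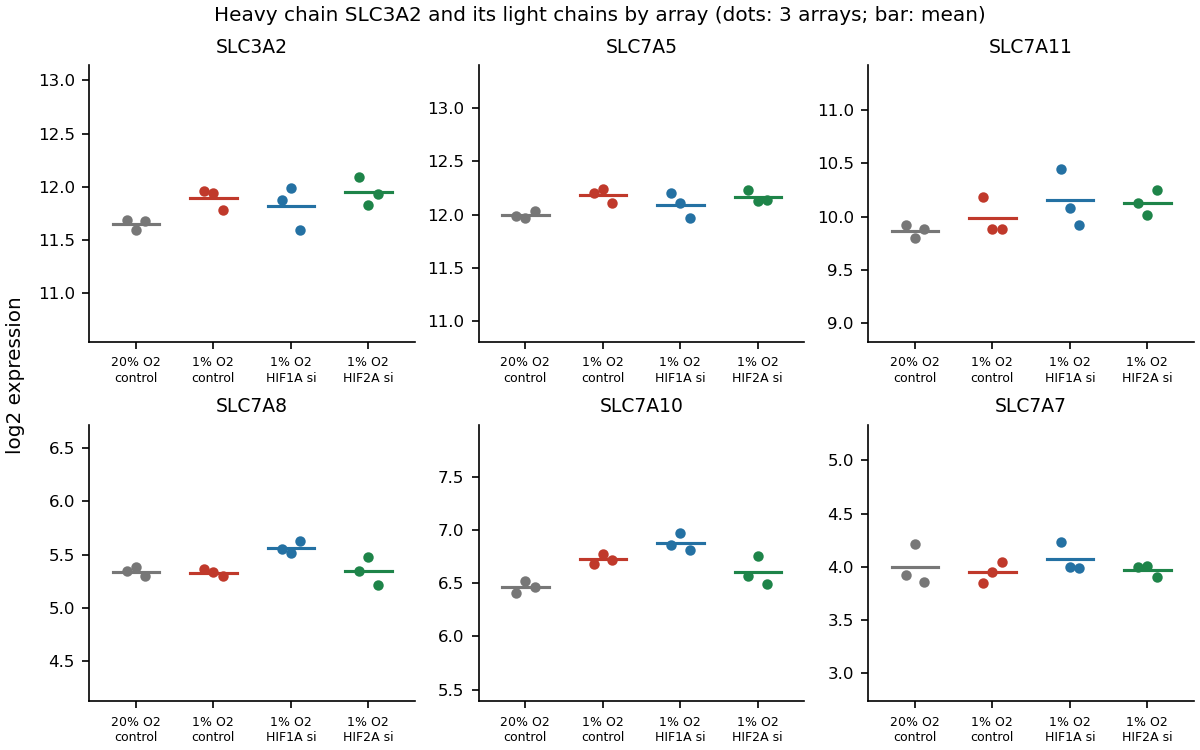
Log2 value on each array for the heavy chain SLC3A2 and 5 SLC7A light chains, by group. Dots are arrays and bars are group means. None of the 6 genes was called in hypoxia or with either siRNA against control siRNA, and SLC7A7 is dim on every array.

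The remaining members are named here for completeness. SLC7A2 and SLC7A3, cationic amino acid transporters, SLC7A9, the partner of SLC3A1, and SLC7A13 and SLC7A14 were dim, as were SLC36A3 and SLC38A11. Over the 11 dim members the change in hypoxia ran from -0.15 to 0.55, with SLC38A4 highest. SLC7A4 was intermediate and differed by 0.13. SLC43A1, known as LAT3, differed by -0.15 and SLC38A6 by -0.46 (adjusted p = 0.347). None of them was called in hypoxia except SLC38A4. SLC36A4, a high-affinity proline and tryptophan transporter, and SLC43A3, a purine nucleobase transporter despite its family, differed by -0.28 and -0.05 with no call, and both moved with HIF1A siRNA. Counted over all members, normoxic and hypoxic control arrays did not overlap in 16 of 37, against 38.4% of all genes.

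**Figure D4:**
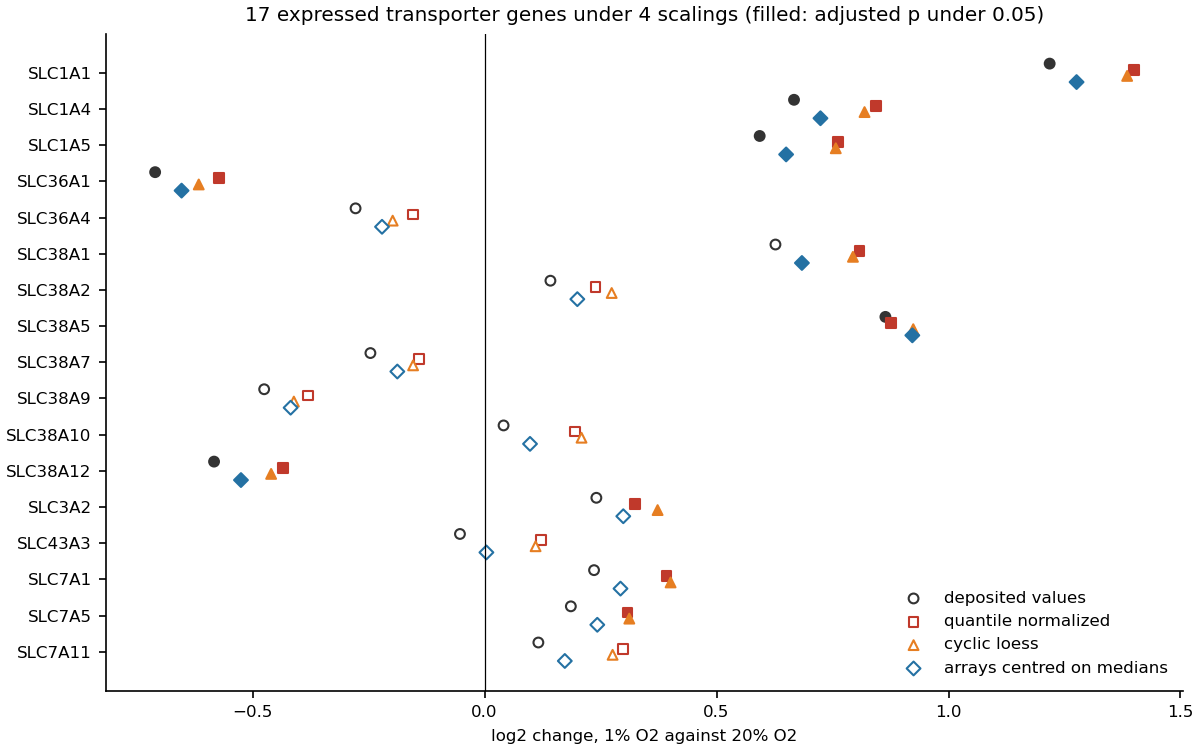
Log2 change in hypoxia with control siRNA against normoxia for the 17 expressed transporter genes under 4 scalings of the arrays: deposited values, quantile normalization, cyclic loess and median centring. Filled points were called at an adjusted p under 0.05. SLC1A1, SLC1A4, SLC1A5 and SLC38A5 rise and SLC36A1 and SLC38A12 fall under all 4, and SLC38A1, SLC7A1, SLC3A2 and SLC7A5 are called with quantile and loess but not on the deposited values.

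HIF1A siRNA was compared with control siRNA in hypoxia to ask which transporters move with this siRNA. EPAS1 was 2.79-fold lower on these arrays too, and the part of each HIF subunit was not tested. With HIF1A siRNA, SLC1A1, SLC36A4, SLC38A5, SLC43A3 and the dim SLC38A4 fell, and 0 of the 37 members rose. That is 13.5% of the members, where 10.2% of all genes were called lower and 0.857% higher. Expressed members held 4 of these 5 falls, which is 23.5% of that class, where 15.6% of all expressed genes were lower. Over them the median change was -0.28, against -0.22 over all genes of that class. The members' count thus stood close to the background. Both comparisons use the hypoxic control arrays, so their values are given side by side and no overlap is read from them. Rises made up 7.76% of all calls here, and 39.2% after quantile normalization. The members then stood at 3 higher and 5 lower, with SLC7A11, SLC43A1 (0.37, limma adjusted p = 0.0375) and SLC43A2 higher. Of all 14232 genes 726 were then higher and 1124 lower.

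SLC1A1 showed the largest change of the 5. It was 3.03-fold lower with HIF1A siRNA than with control siRNA (log2 change -1.60, SE 0.15, limma adjusted p = 0.000233). SLC38A5 was 1.76-fold lower (-0.82, SE 0.11, adjusted p = 0.00173) and SLC38A4 1.72-fold lower (-0.78, SE 0.12, adjusted p = 0.0032). The same hypoxic control arrays lay above normoxia by 2.33-fold for SLC1A1, 1.82-fold for SLC38A5 and 1.47-fold for SLC38A4. In all 3 the HIF1A siRNA arrays lay below the hypoxic control arrays without overlap. SLC1A4 and SLC1A5, which rose in hypoxia too, differed by -0.38 (95% interval -0.67 to -0.10, adjusted p = 0.0753) and -0.14 (-0.42 to 0.13, adjusted p = 0.435), and neither was called. The difference of SLC1A4 depended on the arrays and the scaling: it passed at -0.53 without HIF1A siRNA replicate 1 (adjusted p = 0.0154), and was -0.24 after quantile normalization (0.104) and -0.22 with cyclic loess (0.149).

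SLC36A4 and SLC43A3 fell with HIF1A siRNA though neither had been called in hypoxia. SLC36A4 measured 7.79, 7.54 and 7.64 in normoxia, 7.74, 7.14 and 7.27 in hypoxia with control siRNA, 5.93, 6.68 and 5.51 with HIF1A siRNA, and 7.19, 6.92 and 7.29 with HIF2A siRNA. Normoxic and hypoxic control arrays overlapped, and the HIF1A siRNA arrays lay below all others but were far apart from one another. The fall was 2.54-fold (log2 change -1.34, SE 0.26, limma adjusted p = 0.0104), and without hypoxic control replicate 1 it missed the threshold (-1.17, adjusted p = 0.0547). SLC43A3 measured 10.03, 9.99 and 10.08 in normoxia, 10.13, 9.96 and 9.86 in hypoxia with control siRNA, 9.31, 9.42 and 8.82 with HIF1A siRNA, and 9.92, 9.83 and 9.85 with HIF2A siRNA. Only the HIF1A siRNA arrays stood apart, all of them lower, with a fall of 1.74-fold (-0.80, SE 0.14, adjusted p = 0.00768). The upper quartile of the HIF1A siRNA arrays was lower too (7.88 to 8.22, against 8.27 to 8.50 with control siRNA). After quantile normalization, which gives all arrays 1 distribution, all 5 falls remained called: -1.34 for SLC1A1, -1.29 for SLC36A4, -0.72 for SLC38A5, -0.55 for SLC43A3 and -0.78 for SLC38A4. When only the 2 groups compared entered the fit, SLC1A1 and SLC38A5 remained called and SLC36A4 (adjusted p = 0.106), SLC43A3 (0.106) and SLC38A4 (0.0657) did not.

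Members that fell in hypoxia did not pass the test with HIF1A siRNA. SLC36A1 differed by 0.02 (95% interval -0.24 to 0.28), SLC38A12 by -0.12 (-0.47 to 0.23) and SLC43A2 by 0.28 (0.01 to 0.54, limma adjusted p = 0.146). SLC43A2 passed after quantile normalization (0.40, adjusted p = 0.0448). The CD98 pair showed no call either: SLC3A2 measured 11.87, 11.99 and 11.59 and SLC7A5 12.20, 12.11 and 11.97 with HIF1A siRNA, which overlapped the hypoxic control arrays. SLC7A11 measured 10.45, 10.09 and 9.92 with HIF1A siRNA. Its difference from control siRNA was 0.17 (-0.14 to 0.48, adjusted p = 0.426) on the deposited values and 0.36 (adjusted p = 0.0377) after quantile normalization. SLC38A1 differed by -0.74 (adjusted p = 0.0769) with overlapping arrays, and was called without HIF1A siRNA replicate 2 (-1.01, adjusted p = 0.00952). The groups did not overlap in 11 of the 37 members, against 30.8% of all genes.

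HIF2A siRNA, compared with control siRNA in hypoxia, gave 0 calls among the 37 members, where limma called 0.00703% of all genes. That share is 1 gene, the siRNA target EPAS1, so the 0 does not set the members apart from other genes. Changes of the members ran from -0.46 to 0.22, and their median was 0.01. At an unadjusted p under 0.05 there was 1 member of 37, SLC1A1, and 3.53% of all genes. SLC1A1 measured 10.00, 9.70 and 9.96 with HIF2A siRNA, below all hypoxic control arrays and above all normoxic ones. It differed from control siRNA by -0.46 (95% interval -0.79 to -0.13, limma adjusted p = 1). It was the only member whose arrays did not overlap, where 9.36% of all genes did not. For SLC38A5 the difference was 0.03, for SLC1A4 -0.03 and for SLC1A5 0.02.

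The 2 siRNAs were then compared with each other in hypoxia. With HIF1A siRNA 5 members were lower than with HIF2A siRNA and 0 higher, where 8.53% of all genes were lower and 0.899% higher. SLC1A1 was 2.21-fold lower (limma adjusted p = 0.0016), SLC38A5 1.80-fold (0.0016), SLC36A4 2.14-fold (0.0272), SLC43A3 1.61-fold (0.0184) and SLC38A4 1.46-fold (0.0215). It uses the same HIF1A siRNA arrays as the comparison with control siRNA, so nothing is read from the genes the 2 share. The comparison is less firm than the one with control siRNA. Leaving out HIF2A siRNA replicate 1 or 3 ended the calls of SLC36A4, SLC43A3 and SLC38A4 (adjusted p 0.0691 to 0.115), leaving out HIF1A siRNA replicate 3 ended those of SLC36A4 (0.0917) and SLC38A4 (0.0742), and a fit of only these 2 groups called 0 of the 5 (0.0505 to 0.125). Rises made up 9.54% of all calls, and 44.9% after quantile normalization, when the members stood at 2 higher and 5 lower. Of all 14232 genes 799 were then higher and 981 lower.

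Each hypoxic group with a HIF siRNA was also set against normoxia. The same normoxic arrays serve in the comparison of hypoxia with control siRNA, so nothing is read from the genes these comparisons share. With HIF2A siRNA 4 members were higher and 3 lower, where 2.85% and 6.79% of all genes were. SLC1A1 (0.76, limma adjusted p = 0.00977), SLC1A4 (0.64, 0.0108), SLC1A5 (0.62, 0.0106) and SLC38A5 (0.90, 0.000777) were higher. SLC36A1 (-0.62, 0.00847), SLC43A2 (-0.67, 0.00582) and SLC38A12 (-0.68, 0.0225) were lower. With HIF1A siRNA 2 members were higher and 7 lower, where 4.67% and 30.4% of all genes were. SLC1A5 (0.45, 0.0188) and SLC7A10 (0.42, 0.00901) were higher, and SLC36A1 (-0.69, 0.00377), SLC43A2 (-0.46, 0.0139), SLC38A12 (-0.70, 0.00889), SLC38A9 (-0.80, 0.00884), SLC36A4 (-1.62, 0.00317), SLC43A3 (-0.86, 0.00366) and SLC38A6 (-0.83, 0.0351) were lower. SLC38A5 differed from normoxia by 0.05 (adjusted p = 0.751) and SLC1A1 by -0.38 (adjusted p = 0.0663). Over all genes rises made up 13.3% of the calls with HIF1A siRNA, and 51.8% after quantile normalization; with HIF2A siRNA they made up 29.5% and 46%. After quantile normalization the members stood at 7 higher and 5 lower with HIF1A siRNA, and at 7 higher and 3 lower with HIF2A siRNA. Of all 14232 genes 2241 were then higher and 2082 lower with HIF1A siRNA, and 768 and 903 with HIF2A siRNA. With HIF1A siRNA SLC1A4 was 0.28 above normoxia on the deposited values (limma adjusted p = 0.106), and was called higher under all 3 other scalings (0.46 to 0.61), as were SLC7A11 (0.47 to 0.66) and SLC3A2 (0.32 to 0.38). SLC7A1 and SLC38A10 turned from -0.04 and -0.01 to called rises of 0.37 and 0.41 after quantile normalization, and of 0.36 and 0.40 with cyclic loess. SLC43A2 with HIF1A siRNA missed the threshold under quantile normalization (-0.26, adjusted p = 0.107), median centring (-0.29, 0.0723) and without HIF1A siRNA replicate 3 (0.0523). SLC1A5 missed it without normoxia replicate 1 with either siRNA (0.0661 and 0.0513) and without HIF1A siRNA replicate 2 (0.0544), and SLC38A6 in 9 of 14 alternatives. SLC38A12 with HIF2A siRNA missed it without any 1 of the normoxic arrays or HIF2A siRNA replicate 2 or 3 (adjusted p 0.0553 to 0.0956).

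**Figure D5:**
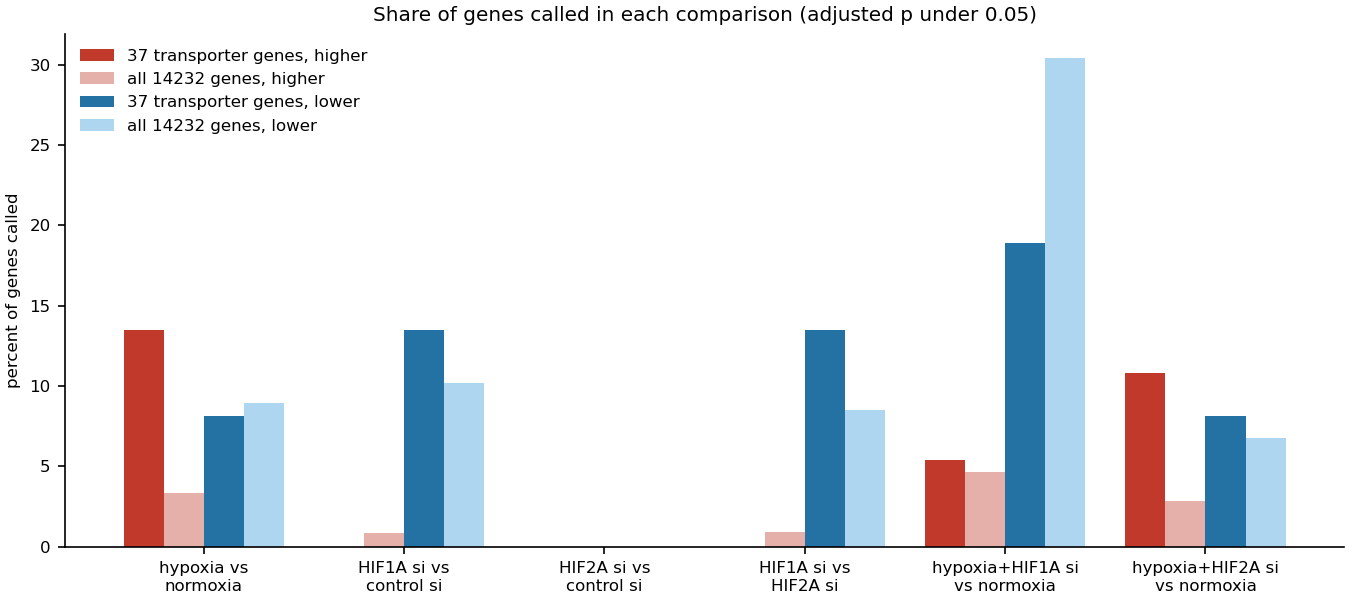
Percent called higher and lower among the 37 transporter genes and among all 14232 genes, in 6 comparisons. For HIF1A siRNA against control siRNA 13.5% of the members and 10.2% of all genes were lower, and for HIF2A siRNA against control siRNA no bar of the members is above 0.

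Genes that work with these carriers were counted from lists. Beside them stand the shares of all genes, 3.37% higher and 8.95% lower in hypoxia and 0.857% higher and 10.2% lower with HIF1A siRNA. Of 25 other measured amino acid transporters, 1 rose and 4 fell in hypoxia. The taurine transporter SLC6A6 rose by 0.94 (limma adjusted p = 0.00133) and fell by 0.98 with HIF1A siRNA (0.00173). With HIF2A siRNA it differed from control siRNA by -0.56 (95% interval -0.85 to -0.27, adjusted p = 0.796), without overlap and without a call. The difference between the siRNAs was not called either (-0.415, adjusted p = 0.0681). The mitochondrial aspartate and glutamate carriers SLC25A13 (-1.05) and SLC25A12 (-1.0), the mitochondrial branched-chain amino acid carrier SLC25A44 (-0.79) and the lysosomal exporter of cationic amino acids SLC66A1 (-0.37) fell in hypoxia. With HIF1A siRNA, SLC32A1 (0.63) and the mitochondrial carrier SLC25A29 (0.38) rose. SLC6A6, SLC25A12 and SLC25A13 kept their calls in hypoxia without each single array, as SLC6A6 did with HIF1A siRNA. SLC25A44 lost it without normoxia replicate 1 or 3 or hypoxic control replicate 2 (adjusted p up to 0.0865), and SLC66A1 without any 1 array of these groups (up to 0.112) and under all 3 other scalings. The call of SLC32A1 was lost without hypoxic control or HIF1A siRNA replicate 1 or 3 (up to 0.118), and that of SLC25A29 without any 1 array but hypoxic control replicate 2 (up to 0.168).

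Of 26 measured genes of the amino acid response outside transport, 11 rose in hypoxia and 0 fell, where 3.37% of all genes rose and 8.95% fell. Their median change was 0.345, against -0.03 over all genes. The lipoprotein receptor VLDLR (2.40), the mTORC1 inhibitor DDIT4 (2.05), the secreted glycoprotein STC2 (1.40) and cystathionine beta-synthase, CBS (1.34), had the largest rises, and 7 of the 11 kept their calls without each single array. With HIF1A siRNA 3 of the 26 fell and 0 rose, where 10.2% of all genes fell and 0.857% rose. The 3 were VLDLR (-1.62), DDIT4 (-0.87) and STC2 (-0.60). The call of STC2 was lost under all 3 other scalings, and without hypoxic control replicate 1 or 3 or HIF1A siRNA replicate 2 or 3 (limma adjusted p up to 0.172). The other genes of the list that rose in hypoxia, CBS among them, were not called with HIF1A siRNA. The list includes known HIF targets as well as ATF4 targets. It was chosen with earlier results of these data known, so its count and median describe the listed genes and do not test the pathway. Of 11 measured genes of cystine use and glutathione, 0 rose and 3 fell in hypoxia, against 3.37% and 8.95% of all genes: GCLM (-1.06) and GCLC (-0.71), the subunits of glutamate-cysteine ligase, and glutathione reductase, GSR (-0.81). GCLM and GCLC lost their calls without normoxia replicate 1 or 3 or hypoxic control replicate 2 (adjusted p up to 0.0692 and 0.0985), and GSR without any 1 array but hypoxic control replicate 1 (up to 0.116).

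Of all genes 3.37% rose and 8.95% fell in hypoxia, and 0.857% rose and 10.2% fell with HIF1A siRNA. The next lists are read against these shares. Of 9 measured glutamine and glutamate enzymes, ALDH18A1 of proline synthesis rose (0.47) and the mitochondrial aspartate transaminase GOT2 fell (-0.52). ALDH18A1 lost this call without any 1 array (adjusted p up to 0.132) and GOT2 without any but hypoxic control replicate 1 (up to 0.14). With HIF1A siRNA ALDH18A1 fell by 1.02 (limma adjusted p = 0.00161) and GFPT1 of the hexosamine pathway by 0.53 (0.0479). The call of GFPT1 was lost under all 3 other scalings, and without hypoxic control replicate 1 or 3 or HIF1A siRNA replicate 2 or 3 (up to 0.197). Of 23 measured genes of amino acid sensing by mTORC1, RRAGA rose by 0.58 in hypoxia and SEC13 (-0.64), RRAGC (-0.61) and LAMTOR3 (-0.50) fell, and of these RRAGA kept its call without each single array. RRAGC and LAMTOR3 lost theirs without normoxia replicate 1 or 3 or hypoxic control replicate 2 (adjusted p up to 0.059 and 0.104), and SEC13 without normoxia replicate 3 (0.0554). RRAGA, RRAGC and their scaffold LAMTOR3 anchor mTORC1 at the lysosome. With HIF1A siRNA RRAGA fell by 0.79 (adjusted p = 0.00144), SESN1 by 0.65 and WDR59 by 0.46. SESN1 lost its call without hypoxic control replicate 1 or HIF1A siRNA replicate 3 (up to 0.0763), and WDR59 without replicate 1 or 3 of either group (up to 0.136) and under 2 of the 3 other scalings. HIF2A siRNA against control siRNA gave 0 calls in each of the 5 lists, where 0.00703% of all genes were called. The 0 therefore does not set the lists apart from other genes.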

How the data were processed

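The values deposited by the authors, with 1 value per probe set and array, were treated as log2 expression, a base inferred from their range. Partek and hg18 are named in the submitters' processing notes, while how background, summarization and normalization were handled is not given in the sources that were used. No rescaling was done before testing. The annotation pairs 14432 of 22011 probe sets with 1 symbol, 2408 with several and 5171 with none here. For each of the 14232 genes the brightest probe set was kept. Group means were fitted over all 12 arrays with limma 3.58.1 (R 4.3.3, version 1.17.8 of data.table; plots in matplotlib 3.10.9), with eBayes and Benjamini-Hochberg adjustment over the 14232 genes, and genes were called at an adjusted p under 0.05. Errors are SD over 3 arrays or limma's SE. The number of arrays limits the precision. Scripts were tested on simulated data. Values were printed for all 12 arrays for members called in any of the first 4 comparisons or among the 5 largest hypoxic changes of expressed members; other lists name called genes, at most 4 a direction. The members, lists and rules were chosen with earlier results of these data known. Alternatives were 3 scalings, a filter on dim genes, fits of only 2 groups, a replicate block, array weights, the mean of a gene's probe sets, the class limits and leaving out each array. Promoter sequences are from RefSeq (GRCh38.p14) and were not lifted from hg18.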

Additional observations from a re-analysis of the deposited data

Results flagged for a closer look

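The HIF1A siRNA and HIF2A siRNA groups differed in 5 transporters in hypoxia, by a limma test of the difference between the siRNAs. Among all genes 8.53% were lower with HIF1A siRNA and 0.899% higher. A fit of only these groups called none of the 5. Leaving out single arrays ended the calls of SLC36A4, SLC43A3 and SLC38A4. None of the 5 was called with HIF2A siRNA against control siRNA. HIF1A siRNA minus HIF2A siRNA was -1.14 for SLC1A1, -1.10 for SLC36A4, -0.85 for SLC38A5, -0.68 for SLC43A3 and -0.54 for SLC38A4 on the log2 scale. All 5 were lower with HIF1A siRNA, and HIF1A siRNA arrays had the lowest upper quartiles, whose part in these differences was not tested apart from the scalings given with the processing alternatives. Groups held 3 arrays, too few to look for a single array far from its group.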

How the results depend on the processing

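No called transporter value changed direction under the alternatives run. Over the 37 members, 6 comparisons and all alternatives, 3042 values were compared, most of them not called on the deposited values. Among those called there 45 lost the call, and among the rest 67 gained one. Only called values can lose a call, so 45 of 3042 does not measure how firm the calls were. SLC7A1 and SLC38A10 with HIF1A siRNA against normoxia, not called on the deposited values, turned from below to above 0 and were called with quantile normalization and cyclic loess. The hypoxic change of SLC43A3, not called under any scaling, was -0.05 on the deposited values and 0.12 after quantile normalization. With class limits from gene means 15 members were expressed and 13 dim. Transporters called in hypoxia numbered 8, and 13 with cyclic loess (6 to 8 without each array). HIF1A siRNA against control siRNA gave 5, and 8 with quantile normalization and 2 with only the 2 groups compared (4 to 7 without each array). HIF2A siRNA against control siRNA gave 0 under every alternative. The 2 siRNAs differed in 5, and in 0 with only those 2 groups (2 to 7 without each array). Against normoxia HIF1A siRNA gave 9, and 14 with cyclic loess and 17 with median centring (7 to 10 without each array). HIF2A siRNA against normoxia gave 7, and 11 with cyclic loess and 11 with array weights (5 to 7 without each array). Of all 14232 genes cyclic loess called 2348 in hypoxia, and against normoxia 4011 with HIF1A siRNA and 1840 with HIF2A siRNA. Median centring called 6188 for HIF1A siRNA against normoxia. Quantile normalization called 1850 for HIF1A siRNA against control siRNA. Over all genes, calls went from 1754 to 3739 with array weights in hypoxia; from 1573 to 137 with only 2 groups and 791 with array weights for HIF1A siRNA; from 1342 to 127 with only 2 groups between the siRNAs; from 4986 to 3250 with only 2 groups for HIF1A siRNA against normoxia; and from 1372 to 2131 with only 2 groups and 3214 with array weights for HIF2A siRNA against normoxia. Without single arrays these counts ran over 806 to 1410, 390 to 2648, 268 to 2557, 2361 to 5042 and 588 to 932. Fits of only 2 groups hold fewer arrays. Their calls fell in each comparison with the HIF1A siRNA group. They rose for hypoxia, to 2548, and for HIF2A siRNA against normoxia. The cause of these changes was not tested. HIF2A siRNA against control siRNA gave 1 call over all genes, 4 with quantile or loess and 3 with median centring. Quantile normalization moved the median of all genes from -0.05 to 0.07 for HIF1A siRNA against control siRNA, from -0.06 to 0.07 between the siRNAs and from -0.12 to 0.08 against normoxia. Replicate numbers are shared between groups. Arrays of different groups were correlated after the group mean of each probe set was subtracted. Of 18 same-number pairs 5 correlated above 0.1 (-0.295 to 0.417), and the 36 other pairs ran from -0.486 to 0.491. On average, 4 of 12 arrays correlated best with arrays of their own number. With 3 arrays a group these values cannot settle whether the numbers pair the arrays. With the replicate block the 6 comparisons called the same 8, 5, 0, 5, 9 and 7 transporters. Single values of dim genes lie near the background of the arrays, which was not measured here.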

Other observations

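Some transporters lay on probe sets shared with a neighbouring or similar gene and were not counted as members. The probe set of SLC7A6, the y+LAT2 light chain of CD98, and SLC7A6OS was lower in hypoxia than in normoxia. It averaged 8.42 in normoxia, 7.47 in hypoxia with control siRNA, 7.53 with HIF1A siRNA and 7.42 with HIF2A siRNA, a hypoxic change of -0.95 (SE 0.17, limma adjusted p = 0.00662 over all probe sets). A further probe set paired with the same 2 genes averaged 8.17 and 8.22 in normoxia and hypoxia, a change of 0.04 (adjusted p = 0.914). Which gene or transcript each probe set reads was not tested. The probe set shared by SLC3A1 and PREPL averaged 3.59 over the 12 arrays, and the one shared by SLC36A2 and SLC36A1 averaged 4.74.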
